A study of Mus musculus with 167 samples.

Results

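The 9 genes described here, Irf7, Irf9, Stat2, Isg15, Ifit1, Ifit3, Oasl2, Bst2 and Ifi35, belong to the interferon response and were chosen by name out of 38924 genes in the table. They were followed in single lymphoid-primed multipotent progenitors (LMPPs), early blood progenitors able to form lymphoid and granulocyte-monocyte cells, from the bone marrow of female wild-type C57Bl/6J mice aged 4 or 14 months. The labels name no treatment for either age. The sort took marrow cells without lineage markers or CD150 and with Sca-1, c-Kit, CD34 and high Flt3 (also called Flk2), and single cells were captured and amplified on a Fluidigm C1 chip. Columns with at least 1000 genes at 1 TPM (transcript abundance per length, scaled to the same total in every cell) were kept. This left 64 of 84 cells of 4 months, 29 of 45 in the 14-month set numbered 4 and 37 of 39 in the 14-month set numbered 5, or 130 of 168 columns in all. The labels do not say what the set numbers stand for, so the sets are given apart. The labels name no animal, so each age counts as 1 sample, the differences have no replicate check, and age cannot be told apart from capture.

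Interferons are secreted proteins that warn cells of infection. Type I interferon binds a receptor made of Ifnar1 and Ifnar2, the kinases Jak1 and Tyk2 phosphorylate STAT proteins, STAT2 among them, and these join IRF9 in a complex, ISGF3, that binds the interferon-stimulated response element (ISRE) in promoters of target genes. Stem and progenitor cells are known to keep a part of this programme active without infection, and interferon is known to drive blood stem cells into division.

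The core of the ISRE is a pair of GAAA runs parted by any 2 bases, and the promoter stretches that hold it are shown because the members differ in whether they carry it close to the start site. RefSeq promoter windows of 300 bases (250 before the start and 50 after it, build GRCm38.p6) were matched for 9 of the 9 members, in 10 windows, since Irf9 has 2. Both strands were searched, and overlapping matches were counted separately. This core was found for 5 of the 9 members (Stat2, Isg15, Ifit1, Ifit3 and Bst2), against 3.44% of all 32851 windows. For Irf7, Irf9, Oasl2 and Ifi35 these letters are not in the windows searched, which says nothing of the factor. Capitals mark the matches. Runs of TTTC parted by any 2 bases are the same core on the other strand.
Isg15, chr4:156200860-156200911, minus strand: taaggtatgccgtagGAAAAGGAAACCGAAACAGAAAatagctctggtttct
Ifit1, chr19:34640770-34640828, plus strand: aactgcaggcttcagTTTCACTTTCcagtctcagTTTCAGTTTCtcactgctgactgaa
Ifit3, chr19:34583358-34583431, plus strand: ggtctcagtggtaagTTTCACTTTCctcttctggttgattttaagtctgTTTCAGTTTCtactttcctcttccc
Bst2, chr8:71537572-71537617, minus strand: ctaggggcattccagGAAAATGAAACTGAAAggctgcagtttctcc
Stat2, chr10:128270261-128270300, plus strand: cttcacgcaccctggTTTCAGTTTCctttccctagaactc
Isg15 holds 3 overlapping matches between 78 and 57 bases before the start. Bst2 holds 2 overlapping matches, and Ifit1 and Ifit3 hold 2 separate ones each. Stat2 holds 1, farther out, at 222 to 213 bases before the start. The letters TTCNNNGAA, the core of the element that answers interferon-gamma, were found in the windows of Bst2 and Ifi35, against 8.30% of all windows. These matches describe letters and are not measured binding.

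Among all 130 kept cells 6 members were frequent and 3 were rare. Irf9 was detected (TPM 1 or more) in 37.7% of cells, Ifi35 in 34.6%, Bst2 in 26.2%, Oasl2 in 24.6%, Irf7 in 20.8% and Stat2 in 20.0%. Isg15 followed at 3.85%, and Ifit1 and Ifit3 stood at 1.54% each. The 3 rare genes, Isg15, Ifit1 and Ifit3, are known as strongly induced interferon targets, and each carries at least 2 of the promoter matches shown above. Bst2, a frequent member, also holds 2. In mean level over all cells Ifi35 was highest at 52.8 TPM, then Bst2 at 43.1 TPM, Irf9 at 38.7 TPM, Oasl2 at 33.2 TPM, Irf7 at 24.5 TPM and Stat2 at 11.0 TPM, against 0.484 TPM for Isg15, 0.428 TPM for Ifit3 and 0.0996 TPM for Ifit1. SDs over cells on the log2(TPM+1) scale reached or exceeded the mean for each frequent member in each group. Differences between neighbours in these orders were not tested, so the orders are given as description only.

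**Figure D1:**
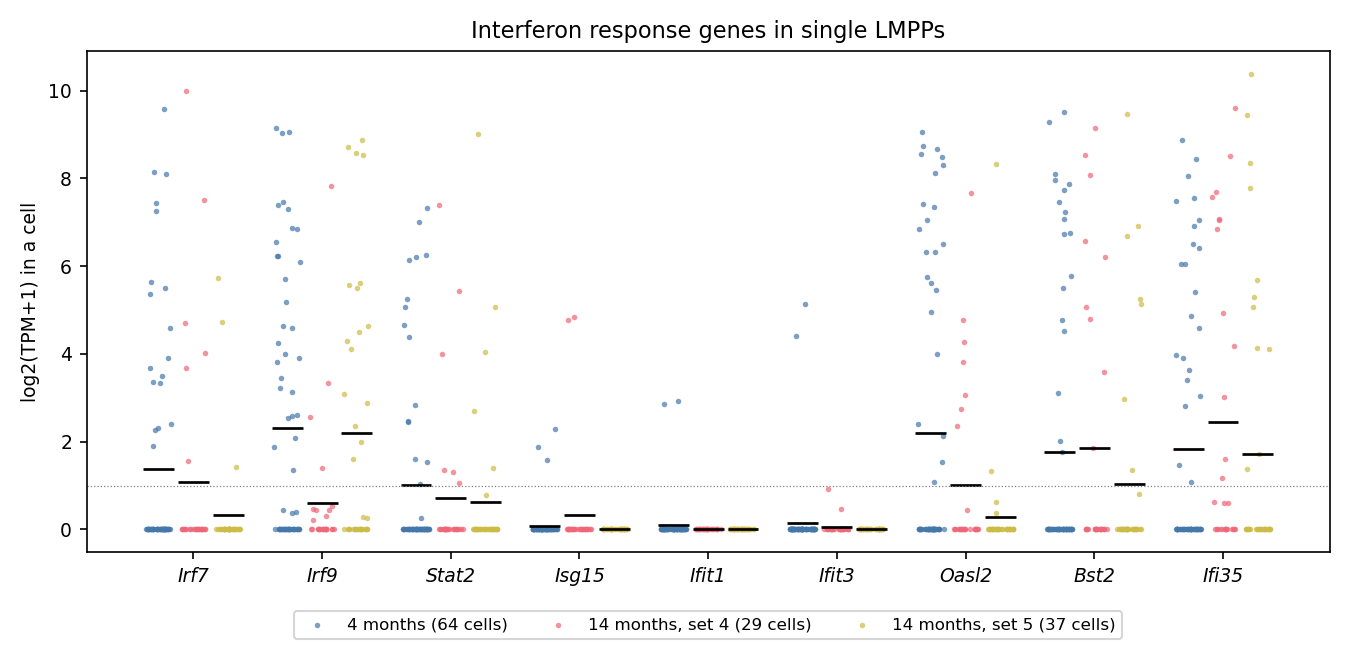
Level of each member in each kept cell, as log2(TPM+1), by age and set; each point is 1 cell (spread sideways at random), black bars are means over cells and the dotted line marks TPM 1. The median cell is at 0 for each member and group apart from Irf9 at 4 months (0.150 TPM) and Ifi35 in set 4 (0.510 TPM), and Isg15, Ifit1 and Ifit3 are at 0 in nearly all cells.

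Among the factors, Irf9 (chromosome 14, 55603571 to 55610030), the DNA-binding part of ISGF3, was at TPM 1 or more in 29 of 64 cells of 4 months (45.3%, exact 95% binomial interval 32.8 to 58.3%), 4 of 29 cells of set 4 (13.8%, interval 3.89 to 31.7%) and 16 of 37 cells of set 5 (43.2%, interval 27.1 to 60.5%). Its TPM ran from 0 to 569 with a median of 0.150 at 4 months, from 0 to 225 with a median of 0 in set 4, and from 0 to 467 with a median of 0 in set 5. Set 4 was thus the low group and set 5 lay beside the 4-month cells. The mean of 8.38 TPM in set 4 rested on 1 cell and was 0.632 TPM without it, against 45.4 TPM at 4 months and 50.7 TPM in set 5. Irf9 overlaps Rnf31 on the same strand in the annotation, so reads of these genes may be split between them.

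Irf7 (chromosome 7, 141262706 to 141266481), the factor that amplifies type I interferon production, reached TPM 1 in 18 of 64 cells of 4 months (28.1%, interval 17.6 to 40.8%), 6 of 29 in set 4 (20.7%, interval 7.99 to 39.7%) and 3 of 37 in set 5 (8.11%, interval 1.70 to 21.9%). Its medians were 0, and its highest values were 765, 1008 and 51.9 TPM in the same order. Set 5 had the lowest share and the lowest maximum, but its interval overlapped those of the other groups. Irf7 overlaps Phrf1 on the opposite strand.

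Stat2 (chromosome 10, 128270559 to 128292849), a STAT protein of ISGF3, was detected in 15 of 64 (23.4%, interval 13.8 to 35.7%), 6 of 29 (20.7%, interval 7.99 to 39.7%) and 5 of 37 cells (13.5%, interval 4.54 to 28.8%). Medians were 0 in each group and the highest values were 158, 168 and 511 TPM. Without that highest cell the set 5 mean of 15.3 TPM was 1.55 TPM. The 3 groups overlapped.

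Of the targets, Oasl2 (chromosome 5, 114896936 to 114912234), a member of the oligoadenylate synthetase-like antiviral family, reached TPM 1 in 23 of 64 cells of 4 months (35.9%, interval 24.3 to 48.9%), 7 of 29 in set 4 (24.1%, interval 10.3 to 43.5%) and 2 of 37 in set 5 (5.41%, interval 0.661 to 18.2%). Medians were 0 and the highest values 532, 203 and 318 TPM. At 4 months 11 cells had 100 TPM or more, against 1 in each 14-month set. The mean was 58.0 TPM at 4 months, 9.59 TPM in set 4 (2.69 TPM without its highest cell) and 8.66 TPM in set 5 (0.0653 TPM without its highest cell). Oasl2 was thus lower in both sets on the mean, and the share interval lay wholly below that of 4 months in set 5 alone.

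Bst2 (chromosome 8, 71534255 to 71537456) encodes tetherin, which holds budding virus particles at the cell surface and is also used as a marker of plasmacytoid dendritic cells. It was detected in 18 of 64 (28.1%, interval 17.6 to 40.8%), 9 of 29 (31.0%, interval 15.3 to 50.8%) and 7 of 37 cells (18.9%, interval 7.96 to 35.2%), with medians of 0 and highest values of 728, 565 and 702 TPM. Ifi35 (chromosome 11, 101448407 to 101458698), which encodes a leucine zipper protein induced by interferon, was detected in 22 of 64 (34.4%, interval 22.9 to 47.3%), 12 of 29 (41.4%, interval 23.5 to 61.1%) and 11 of 37 cells (29.7%, interval 15.9 to 47.0%). Its medians were 0, 0.510 and 0 TPM and its highest values 467, 771 and 1339 TPM. For both genes set 4 had the highest share, and the intervals of the 3 groups overlapped. Ifi35 overlaps Gm11626 on the opposite strand.

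Isg15 (chromosome 4, 156199424 to 156200818), a ubiquitin-like protein that is joined to other proteins after interferon, was detected in 3 of 64 cells at 4 months, 2 of 29 in set 4 and 0 of 37 in set 5. The 3 cells of 4 months had at most 3.90 TPM, while the 2 of set 4 had 27.8 and 26.5 TPM. The exact interval of the share in set 5 reached 9.49%. Ifit1 (chromosome 19, 34640871 to 34650009) and its neighbour Ifit3 (chromosome 19, 34583531 to 34588731) bind foreign RNA or help to do so. They were detected in 2 of 64 cells each at 4 months and in no cell of either 14-month set. Their exact intervals reached 11.9% in set 4 and 9.49% in set 5. The highest values at 4 months were 6.65 TPM for Ifit1 and 34.0 TPM for Ifit3. In set 4 Ifit3 was above 0 but under TPM 1 in 2 cells. Ifit3 has a near-identical copy, Ifit3b, which was at TPM 1 or more in no kept cell, so Ifit3 values are uncertain in how reads were shared between the copies. With so few cells no difference between the groups was detectable for these 3 genes.

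**Figure D2:**
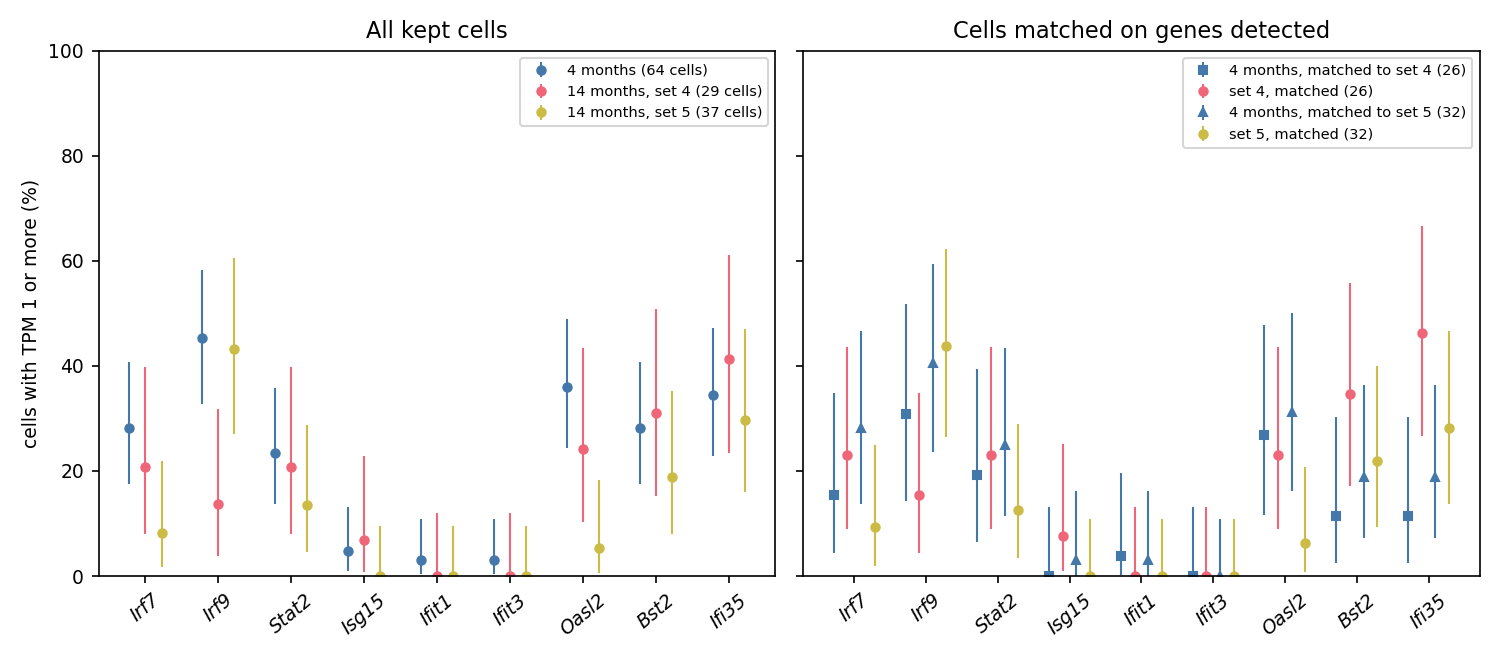
Share of cells with TPM 1 or more for each member in all kept cells (left) and in cells matched on the number of genes detected (right); points are shares and bars exact 95% binomial intervals, which cover counting error only. On the left the interval of Irf9 in set 4 and that of Oasl2 in set 5 lie wholly below those of 4 months; on the right no member's interval is apart from that of its matched 4-month cells.

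The comparison of 14 with 4 months asks how these transcripts differ with age. The share of cells was lower than at 4 months for 6 of the 9 members in set 4 and for 9 of 9 in set 5. Measured genes are those in at least 10% of cells on average over the compared groups, and 6 members are among them. Of these 6 the share was lower for 4 in set 4 and 6 in set 5, against 80.0% and 74.5% of all measured genes. The share interval lay wholly below that of 4 months for 1 of 9 members in set 4 (Irf9) and 1 of 9 in set 5 (Oasl2), against a background of 4.38% and 5.48% of measured genes, and wholly above it for none, against 0.0441% and 0.119%. A count of 1 gene is not read as a departure from that background. The number of genes detected moved with the groups, with a median of 3974.5 at 4 months, 3230 in set 4 and 3376 in set 5. In 26 pairs of set 4 and 4-month cells matched on that number, Irf9 was present in 15.4% of set 4 cells (interval 4.36 to 34.9%) and 30.8% of their partners (interval 14.3 to 51.8%). In the same pairs Ifi35 was in 46.2% (interval 26.6 to 66.6%) and 11.5% (interval 2.45 to 30.2%), and Bst2 in 34.6% and 11.5%, so set 4 stood above its partners for both. In 32 matched pairs of set 5, Oasl2 was present in 6.25% of set 5 cells (interval 0.766 to 20.8%) and 31.2% of their partners (interval 16.1 to 50.0%). Irf9 and Oasl2 stayed lower than in the partners, and each of these pairs of intervals overlapped. Counting any TPM above 0 also made the intervals overlap, with Irf9 in 34.5% of set 4 cells and 50.0% of 4-month cells, and Oasl2 in 10.8% of set 5 cells and 35.9% of 4-month cells.

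Differences of mean log2(TPM+1), 14 months minus 4 months, are given relative to the median measured gene, which stood at -0.42 in set 4 and -0.32 in set 5. A relative difference of at least 1 in either direction was called. In this sense 6 of the 9 members were measured in each comparison, while Isg15, Ifit1 and Ifit3 were too rare, and a gene near 0 in both groups takes a small positive relative difference by construction. In set 4 Irf9 was called lower at -1.29 (means 0.61, SD over cells 1.60, against 2.32, SD 2.95) and Ifi35 called higher at 1.03 (means 2.45, SD 3.32, against 1.84, SD 2.86), beside 6.91% of measured genes called lower and 4.76% called higher. The other measured members of set 4 were at 0.51 (Bst2), 0.13 (Irf7), 0.12 (Stat2) and -0.77 (Oasl2). In set 5 Oasl2 was called lower at -1.59 (means 0.29, SD 1.38, against 2.2, SD 3.29), beside 6.82% of measured genes called lower, and none was called higher, beside 6.53%. The calls of Irf9 and Ifi35 in set 4 depended on the processing: Irf9 stood at -0.828 in cells matched on genes detected and at -0.675 with a pseudocount of 10, and Ifi35 at 2.26 and 0.544. Oasl2 in set 5 stood at -1.46 and -0.901 under the same settings. The others of set 5 were at 0.20 (Irf9), 0.19 (Ifi35), -0.07 (Stat2), -0.41 (Bst2) and -0.74 (Irf7). The median over the 9 members was 0.32 in set 4 and 0.17 in set 5, each the value of Ifit3, 1 of the rare genes. Over the 6 measured members it was 0.12 in set 4 and -0.24 in set 5. The median over all measured genes is 0 by construction. Both sets are set against the same 4-month cells, so their values are not independent of each other.

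The 2 sets of 14-month cells differed from each other for some members by as much as from the 4-month cells. Irf9 was called higher in set 5 than in set 4 at 1.49, beside 7.52% of measured genes, while Bst2, Irf7, Ifi35 and Oasl2 lay lower in set 5 at -0.92, -0.87, -0.84 and -0.82, short of the call that 5.26% of genes passed. At least 1 in either direction was reached by 12.8% of genes. The share of cells was lower in set 5 for 6 of 9 members and for 5 of the 6 measured ones, against 42.5% of measured genes. No member's share interval was apart between the sets, beside 0.0858% of genes wholly below and 0.282% wholly above. With the sets pooled into 66 cells of 14 months, Oasl2 was called lower at -1.24, beside 5.08% of genes, and none was called higher, beside 3.37% (8.46% in either direction). Irf9 stood at -0.46. The pooled share was lower for 8 of 9 members and for 5 of the 6 measured ones, against 81.4% of measured genes. Its interval lay wholly below that of 4 months for 1 member, Oasl2 (13.6%, interval 6.43 to 24.3%), beside 8.16% of genes. It lay wholly above for none, beside 0.0867%. Of the 6 members detected in 5 or more cells of 4 months, 0 were missing from all 14-month cells, against 2.38% of genes detected so often. The lower Irf9 is thus a value of set 4, and Oasl2 was below the median gene in both sets.

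Members were also counted per cell. Cells with at least 1 of the 9 made up 76.6% at 4 months (interval 64.3 to 86.2%), 75.9% in set 4 (interval 56.5 to 89.7%) and 64.9% in set 5 (interval 47.5 to 79.8%). At least 2 were present in 40 of 64 cells of 4 months (62.5%, interval 49.5 to 74.3%), 14 of 29 in set 4 (48.3%, interval 29.4 to 67.5%) and 9 of 37 in set 5 (24.3%, interval 11.8 to 41.2%). At least 3 were present in 23 of 64 cells of 4 months (35.9%, interval 24.3 to 48.9%), 6 of 29 in set 4 (20.7%, interval 7.99 to 39.7%) and 6 of 37 in set 5 (16.2%, interval 6.19 to 32.0%). The intervals for at least 3 overlap, while for at least 2 that of set 5 lay wholly below that of 4 months. The count for at least 2 was not matched on genes detected and has no background of other gene sets. Set 5 cells also had fewer genes detected (median 3376 against 3974.5 at 4 months), so this is not read as a difference in the members. The count of members is a range rather than a class, and 17, 8 and 3 cells in the same order lay 1 short of 3. Cells with 5 or 6 members were found at 4 months alone, 7 of 64 (10.9%, interval 4.51 to 21.2%). Set 4 had 0 of 29 and set 5 had 0 of 37, with intervals reaching 11.9% and 9.49%, so the intervals overlap. The cells with 5 members had a median of 6276 genes detected and those with 6 a median of 6338, above the median of all 4-month cells.

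The number of genes detected moved with the count of members within each group. At 4 months the median was 3406 genes in the 15 cells with no member and 4987 in the 23 cells with 3 or more. In set 4 it was 2403 and 3899, and in set 5 it was 2631 and 4583.5. Over cells, Pearson's r between members and genes detected was 0.62 at 4 months (64 cells), 0.62 in set 4 (29 cells) and 0.52 in set 5 (37 cells), given as a description, since both counts come from the same library. In the pairs matched on genes detected, at least 3 members were found in 23.1% of set 4 cells against 11.5% of their 4-month partners, and in 15.6% of set 5 cells against 28.1%. In these pairs the order of set 4 and 4 months was turned around, with overlapping intervals (8.97 to 43.6% and 2.45 to 30.2%). Partners were drawn once, in column order. The 4-month partners of set 4 and set 5 differed from each other, at 11.5% and 28.1%, with medians of 3359 and 3530 genes. The part of the draw in the turned order was not tested.

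**Figure D3:**
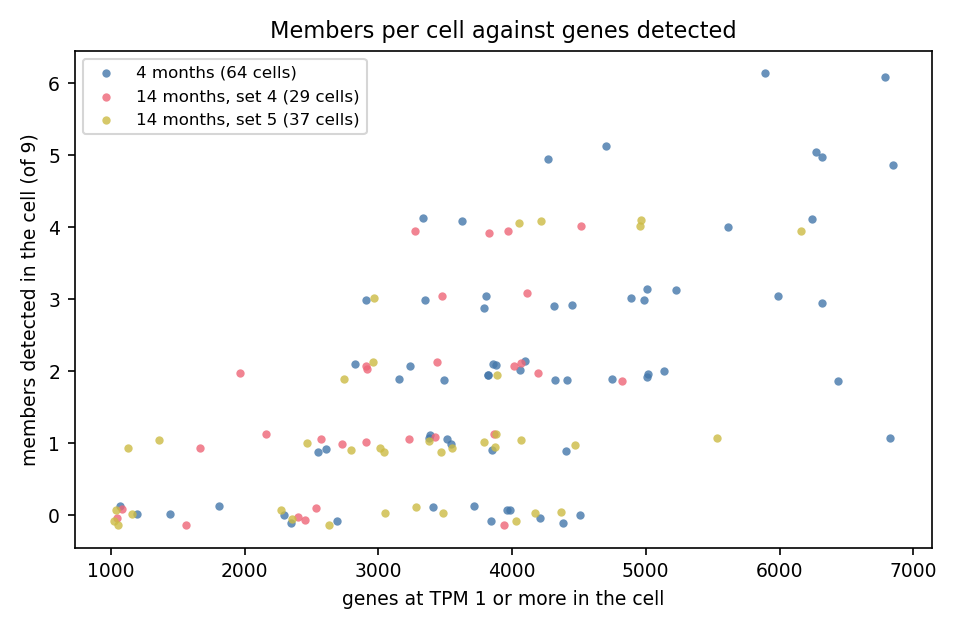
Number of the 9 members detected in each kept cell against the number of genes at TPM 1 or more in that cell; each point is 1 cell, moved up or down slightly at random so that points do not hide each other. Cells with more genes hold more members in each group, and the cells with 5 or 6 members are 4-month cells, with median gene counts of 6276 and 6338.

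Of the 2 cells of 4 months with 6 members, 1 had Oasl2 at 315 TPM, Bst2 at 249 TPM, Irf9 at 175 TPM, Irf7 at 152 TPM, Ifit3 at 34.0 TPM and Ifit1 at 6.65 TPM. The same cell had Usp18, which removes Isg15 from proteins, at 403 TPM, Cmpk2 at 64.1 TPM and Rsad2, the antiviral protein viperin, at 13.4 TPM. Isg15 itself was not detected in it. This is a description of 1 cell with 5891 genes detected, and Usp18, Cmpk2 and Rsad2 were picked among many pathway genes detected in it. The other cell with 6 members, with 6785 genes detected, held Irf7, Irf9, Stat2, Oasl2, Bst2 and Ifi35.

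Correlation of levels between members was weak, and no background of other gene pairs was computed. Among the 6 frequent members there are 15 pairs, and after centring each gene within 4 months, set 4 and set 5 the Pearson correlations of log2(TPM+1) over 130 cells ran from 0.03 to 0.31 with a median of 0.13. The highest was between Irf7 and Oasl2, where Oasl2 was detected in 55.6% of the cells with Irf7 and 16.5% of those without. Of the 15 cells with both, 11 were 4-month cells. Stat2 and Irf9, which act in 1 complex, were detected together in 14 cells and correlated at 0.03 in level. Stat2 was detected in 28.6% of the cells with Irf9 and 14.8% of those without. For Irf7 and Irf9 the order was reversed, with Irf9 in 33.3% of the cells with Irf7 and 38.8% of those without. Both values of a pair come from the same library and share its depth.

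The measured genes outside the members with the most similar pattern were named by their centred correlation with the mean of the members over 130 cells, among 9262 genes. They were Tmem134 (r 0.51), Tgtp2 (0.49), St3gal6 (0.45), Mob3a (0.45) and Abt1 (0.44). Tgtp2, an interferon-induced GTPase, was detected in 44, 13 and 21 cells of 4 months, set 4 and set 5, with r of 0.43, 0.66 and 0.51 within them. Its near-identical neighbour Tgtp1 makes its value uncertain. The number of genes detected in a cell had the same correlation with the members' mean, 0.51, as the highest gene.

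The rest of the pathway was read from lists that do not hold the members. Of 10 interferon ligand genes, 2 were detected in any kept cell, Ifng and Ifnl2, in 1 cell of 4 months each. Of the 9 receptor chains and kinases 7 were measured, and none was called in either set, beside 11.7% and 13.4% of all measured genes called in either direction. Jak1 was detected most, in 52, 24 and 29 cells of 4 months, set 4 and set 5. The receptor chain Ifnar1 was in 28, 6 and 8 cells, with relative differences of -0.80 and -0.59, the lowest of the list in set 4 and set 5, and the interferon-gamma receptor chain Ifngr2 was the highest at 0.41 and 0.46. Ifnar2, the partner of Ifnar1, was in 38, 16 and 22 cells.

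Of 8 other STAT and IRF genes 7 were measured, with a median relative difference of -0.74 in set 4 and -0.64 in set 5, and 7 of 7 had a lower share than at 4 months in each set, beside 80.0% and 74.5% of all measured genes. Irf3, the factor that starts interferon production, was called lower in set 5 at -1.27, beside 6.82% of all measured genes. It was detected in 27 cells of 4 months, 5 of set 4 and 4 of set 5. Its share interval in set 5 lay wholly below that of 4 months, beside 5.48% of all measured genes. Irf5 did so in set 4, beside 4.38%, with 1 cell against 19 at 4 months and 7 in set 5. Irf8, a factor of monocyte and dendritic cell formation, was the lowest in set 4 at -0.92, and Irf5 was the highest in set 5 at -0.39. Irf2, a repressor of interferon targets, was detected most, in 51, 19 and 22 cells.

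Of 14 sensors and adaptors 10 were measured and none was called, beside 11.7% and 13.4% of all measured genes called in either direction. Tmem173, the adaptor STING, was detected most, in 44, 17 and 21 cells. The RNA sensor Ddx58 (RIG-I) was lowest in both sets at -0.44 and -0.90, Tbk1 was highest in set 4 at 0.88 and Myd88 in set 5 at 0.67. Of the 4 genes that join Isg15 to proteins or remove it, 4 were measured. The activating enzyme Uba7 was called lower in set 4 at -1.10, beside 6.91% of all measured genes, and stood at -0.47 in set 5. The conjugating enzyme Ube2l6 was detected most, in 35, 11 and 16 cells. Isg15 was thus rarer than each of these partners. Herc6 was highest in set 5 at 0.16. Usp18, which is also in the feedback list, stood at 0.14 and 0.00, the highest of the 4 in set 4. In the feedback list 6 of 7 were measured. The phosphatase gene Ptpn6 was detected most, in 48, 19 and 17 cells. It was called lower in set 5 at -2.13, beside 6.82% of all measured genes. Socs3, an inhibitor of cytokine signalling, was in 18, 3 and 1 cells. Its interval in set 5 lay wholly below that of 4 months, beside 5.48% of all measured genes. Pias1 was lowest in set 4 at -0.52, and Ptpn2 was highest in set 5 at 0.21.

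Of 50 other interferon-stimulated genes 37 were measured in set 4 and 38 in set 5, with median relative differences of 0.00 and -0.20. In set 4, 2 were called higher, Gbp7 at 1.13 and Xaf1 at 1.08, and 2 lower, Ifi27 at -1.60 and Isg20 at -1.09, beside 4.76% and 6.91% of all measured genes. In set 5 none was called higher and 4 lower, Ifi27 at -1.52, Nmi at -1.47, Samhd1 at -1.41 and Ifi27l2a at -1.07, beside 6.53% and 6.82%. These counts lie near the background. Share intervals lay wholly below those of 4 months for Dtx3l and Isg20 in set 4 and for Dtx3l, Samhd1, Oas2 and Oas1g in set 5, beside 4.38% and 5.48% of all measured genes. Dtx3l, a ubiquitin ligase partner of Parp9, was in 52, 14 and 18 cells. Ifi27, detected in 42, 14 and 19 cells, was the only gene of the lists called in both sets. Gbp7, a guanylate-binding protein, was also the highest in set 5 at 0.93. Ly6e was detected most, in 60, 28 and 35 cells, and the viral entry inhibitors Ifitm2 and Ifitm3 were in 57, 26 and 31 and in 54, 26 and 30 cells. These common targets contrast in frequency with Isg15, Ifit1 and Ifit3. Ly6a, which encodes the sort marker Sca-1, is also an interferon target and was in 25, 10 and 15 cells.

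**Figure D4:**
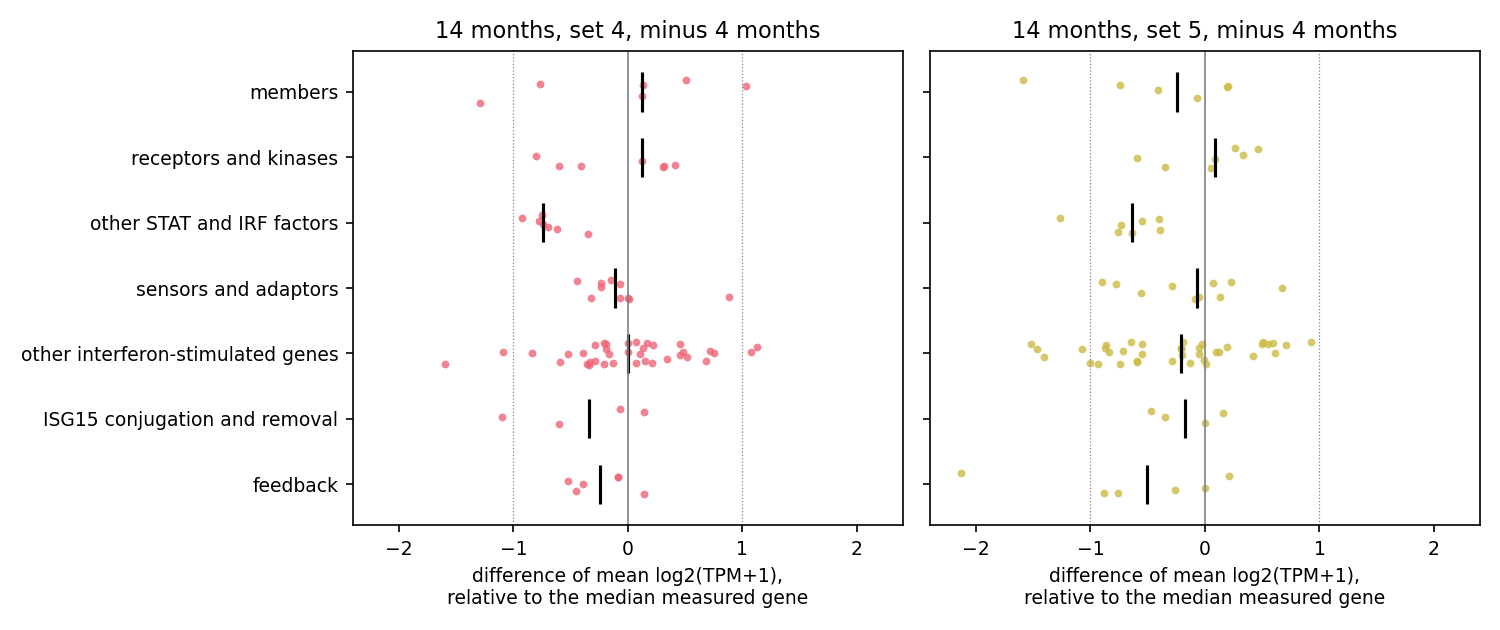
Difference of mean log2(TPM+1) between each 14-month set and 4 months, relative to the median measured gene, for the measured members and the measured genes of each pathway list; each point is 1 gene (moved slightly up or down at random), black bars are list medians and dotted lines mark the call at 1. The STAT and IRF factors lie below 0 in both panels, while members and other stimulated genes lie on both sides of it.

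For the sort, each of Flt3, Cd34, Kit and Ly6a was detected in each group, Flt3 in 64 of 64, 25 of 29 and 36 of 37 cells, and Slamf1 (CD150), Cd3e and Ly6g were under TPM 1 in all kept cells. Itgam, the gene of the lineage marker CD11b used for depletion, was in 44, 7 and 10 cells (68.8%, 24.1% and 27.0%). Mitochondrial transcripts took a median of 12.4%, 20.5% and 15.8% of TPM. Markers of plasmacytoid dendritic cells, which carry Bst2 and Irf7, were detected for 5 of 8 genes in each group, with summed levels of 0 to 800.2 TPM at 4 months, 0 to 813 TPM in set 4 and 0 to 1206 TPM in set 5. Tcf4, which was in 57, 24 and 30 cells, made up most detections. The defining marker Siglech was in 4, 1 and 0 cells, Klk1 and Cd209d were under TPM 1 in each cell, and cells with 3 or more members held at most 3 of the 8 markers. Monocyte and macrophage markers were detected for 4 of 7 genes in each group, with summed levels of 0 to 1446, 0 to 5640.0 and 0 to 6181 TPM and medians of 204, 62.5 and 40.0 TPM. Adgre1, C1qa and C1qb were not detected, and Csf1r was in 17, 1 and 3 cells. A set 5 cell with 3 or more members held 4 of the 7. Conventional dendritic cell markers were detected for 4 of 5 genes at 4 months, 1 in set 4 and 2 in set 5, with summed levels of 0 to 204, 0 to 1.32 and 0 to 16.0 TPM. Cd209a was under TPM 1 in each cell, Xcr1 was in 14, 1 and 2 cells, Itgax in 5, 0 and 1, and Clec9a and Zbtb46 in 1 cell of 4 months each. A 4-month cell with 3 or more members held 4 of these 5 markers. The part of the markers, of mitochondrial share and of gene number in the members' values was not tested. Among neutrophil markers, Camp was in 0, 0 and 5 cells, S100a8 in 3, 2 and 5, and S100a9 in 1, 0 and 3. Ltf and Ngp were under TPM 1 in each cell. In 1 kept cell of set 5 Camp took 364929.9 TPM, and no member was detected there. Of 8385 pairs of kept cells, 5 pairs, each of 14-month cells, correlated above 0.75 across genes. Without 1 cell of each such pair, at least 3 members were detected in 12.1% of set 5 cells and 20.7% of set 4 cells.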

How the data were processed

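The deposited table holds TPM values per gene and cell, made by the authors with Bowtie2 2.2.0, RSEM 1.2.12 and build mm10, per the submitters' processing notes. Annotation, strand and filters are not given in the sources used here. Each column sums to 1000000, so depth is unknown, and RSEM shares reads between similar genes by estimate. Symbols were found for 37607 of 38924 identifiers. Coordinates come from GENCODE on the same build. The labels list 83 cells of 14 months, the table has 84 such columns, and names show age and set only.

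Detection meant TPM 1 or more. Means used log2(TPM+1), with a pseudocount of 1, which understates the change of low genes. With 1 sample per age no test was run. Intervals are Clopper-Pearson, 95%, and cover counting error only. The alternatives were other pseudocounts, detection limits, cell filters, scalings and matched cells. Genes in at least 10% of cells, as the mean of the compared groups, were measured. Matching took, for each 14-month cell in column order, the nearest unused 4-month cell within 10% in genes detected. Steps were tested on simulated data. How they behave for genes as sparse as the members, or between groups unequal in genes detected, was not tested. All members were named. Of each list, the gene detected most, the highest and lowest in each set, and any called in both sets were named, with the called genes, the genes with intervals apart and some neighbours added after their values were seen. A gene that this rule would name is not reported here. The members and lists were chosen with earlier results of these data known. No doublets were called. The tools were Python 3.11.15, with pandas 2.3.3 for tables, scipy 1.17.1 for intervals, numpy 2.4.6 for means and matplotlib 3.10.9 for plots.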

Additional observations from a re-analysis of the deposited data

How the results depend on the processing

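The median relative difference of the 9 members ran from -0.0173 to 0.512 in set 4 and from -0.145 to 0.254 in set 5. These ranges cover 14 alternatives each, with both signs among them, and the median moved by under 1.5-fold in each. This median takes in Isg15, Ifit1 and Ifit3, which were too rare to be measured. At 4 months the share of cells with at least 3 members, 35.9%, was 23.4% with detection at TPM 5, 18.8% at TPM 10, 62.5% for at least 2 members, 17.2% for at least 4, and 11.5% in cells matched to set 4. In set 4, 20.7% became 48.3% for at least 2 members, 13.8% at TPM 5 and for at least 4, 10.3% at TPM 10 and 13.3% with all columns. In set 5, 16.2% became 24.3% for at least 2 members and 10.8% at TPM 10. The number of members with an interval apart from 4 months, 1 in each set, was 0 in each with detection at any TPM above 0 and in matched cells, and 1 at TPM 5 or 10, again Irf9 in set 4 and Oasl2 in set 5; these and the matched shares were chosen after seeing the data. Matched cells are fewer, which widens the intervals. Of 252 single-member values, 240 moved by under 1.5-fold, 12 by more, and 0 called values changed sign. The call of Irf9 in set 4 was lost with a pseudocount of 10 (-0.675), medians over cells (-0.189), matched cells (-0.828), all columns (-0.931) and both sets pooled (-0.464). That of Ifi35 in set 4 was lost with a pseudocount of 10 (0.544), all columns (0.650), no filter on low values (0.741), medians (0.595), both sets pooled (0.556) and without the cell of highest member mean in each group (0.803), and Ifi35 was 2.26 in matched cells and 1.74 with a pseudocount of 0.1. That of Oasl2 in set 5 was lost with a pseudocount of 10 (-0.901) and medians (0). Other members passed 1 in some alternatives. Irf7 in set 5 did so with a pseudocount of 0.1 (-1.18) and in matched cells (-1.14), and Bst2 in set 4 in matched cells (1.02). Oasl2 in set 4 did so with no filter on low values (-1.07) and both sets pooled (-1.24). Isg15 in set 4, too rare to be measured, stood at 1.03 with a pseudocount of 0.1. No paired analysis was possible because column names carry no label number and no test was run.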

Other observations

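Some rare interferon targets were seen at 4 months alone. Of the 79 genes of the pathway lists detected in 5 or more of the 64 cells of 4 months, 4 were detected in none of the 66 cells of 14 months (5.06%), against 2.38% of all 10976 genes detected so often. These were Mx1, Oas1b, Oas1c and Ifit1bl2, in 6, 6, 6 and 5 cells. Mx1 is a gene of the Mx GTPase family, Oas1b and Oas1c belong to the oligoadenylate synthetase family, and Ifit1bl2 is a relative of Ifit1. Oas1b and Ifit1bl2 were above 0 but under TPM 1 in set 5, with means of 0.0124 and 0.0138 TPM. The 4 genes were singled out after their values were seen, and the filter used the 4-month cells only. Cells of 4 months also had more genes detected, so this count is not read as a departure from the background. The Oas1 copies resemble each other closely enough that their reads may be shared. From the same family, Oas2 and Oas1g were in 13 and 13 cells of 4 months, 2 and 6 of set 4, and 0 and 0 of set 5.

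Columns with under 1000 genes entered only the alternative with all columns. Of these, 3 of 16 of set 4 held a member (18.8%, interval 4.05 to 45.6%), with Irf7, Bst2 and Ifi35 among the members seen. Members were detected in 0 of 20 of 4 months and 0 of 2 of set 5.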
